A study of Mus musculus with 6 samples.

Results

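The genes described here are 41 mouse genes for cytosolic and mitochondrial chaperones, the proteins that help other proteins fold, of 27179 genes in the deposited count table. They were listed by name and taken from the table by Entrez identifier: 2 heat shock factors, 8 HSP70 and HSP110 chaperones, 9 HSP40, BAG and small heat shock proteins, 9 HSP90 genes and co-chaperones, 8 subunits of the chaperonin TRiC and 5 mitochondrial chaperones. RNA was sequenced from leukaemia cells of 1 line, labelled A/E9a;NRASG12D;Ifnar1-/-, in mice of strain C57BL/6. One group of 3 libraries came from mice given panobinostat, an inhibitor of histone deacetylases, for 3 days, and the other group of 3 from mice given vehicle for the same time. All 6 libraries share the A/E9a fusion (a form of AML1-ETO), the activated NRAS and the label of a lost Ifnar1, which encodes 1 chain of the receptor for type I interferons. The cells were sorted from the spleen by green fluorescent protein with propidium iodide to mark viability. Whether each library is from a mouse of its own is not said in the labels, so the p-values measure the spread between these libraries only. Nor do they give the mice's age or the dose. The libraries are named by group and by the number in the column header, which is not tied to the replicate numbers of the labels.

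Chaperones bind unfolded protein chains and release them, most of them by cycles of ATP binding and hydrolysis. HSP40 proteins deliver clients to HSP70, nucleotide exchange factors such as HSP110 and BAG proteins let HSP70 release them, and HSP90 takes over kinases and receptors late in folding. TRiC, a ring-shaped chaperonin, folds actin and tubulin, and HSP60 with HSP10 does a like task in mitochondria. Many of the cytosolic genes are induced by heat shock factor 1 (HSF1), which is held back by chaperones and binds repeats of the unit nGAAn in promoters. HSP90 is itself a target of acetylation, and HDAC6, one of the deacetylases that panobinostat inhibits, removes those acetyl groups.

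Promoter sequences are shown first, because the members differ in whether they hold a run of such units. RefSeq windows of 250 bases before to 50 bases after each start site (GRCm38.p6) were matched for 35 of the 41 genes, in 45 windows. Hsf1, Hspa8, Hsp90aa1, Hsp90ab1, Cct4 and Hspa9 had no window. The search was for 3 units in alternating orientation, GAANNTTCNNGAA or TTCNNGAANNTTC. Runs with a changed letter in a unit or with another spacing were not counted, so a gene without a match may still hold such a run. These patterns are each other's reverse complement, so both strands are covered, and overlapping matches were counted. Such a run stood in the windows of 5 of the 35 genes (14.3%), against 0.591% of 9813 tested genes with a window and 0.603% of all 32851 windows. The 5 genes were Hsph1, Dnajb6, Chordc1, Hspd1 and Hspe1. The shorter run of 2 units, GAANNTTC or TTCNNGAA, which is part of every longer match, stood in 16 of the 35 genes (45.7%), against 14.1% of the tested genes with a window. A match describes letters and does not show that HSF1 binds there. The windows below are printed 5′ to 3′ on the gene's strand, with matches of 3 units in capitals. The first is that of Chordc1, an HSP90 co-chaperone, at chr9:18292017-18292316 on the plus strand, where 3 overlapping matches run from 4 bases before the start site. It is followed by a window of Hsph1, an HSP110 chaperone, at chr5:149636266-149636565 on the minus strand, with 1 match. That match begins at base 16 counted from the start site, so it lies after the start site and not before it. The third is that of Hspe1, mitochondrial HSP10, at chr1:55087898-55088197 on the plus strand. Its 2 overlapping matches at chr1:55088059-55088076 are also the ones in the window of Hspd1, mitochondrial HSP60, which is transcribed the other way. The fourth is that of Dnajb6, an HSP40, at chr5:29735648-29735947 on the plus strand, with 1 match. The last is that of Dnaja1, an HSP40, at chr4:40722218-40722517 on the plus strand, which holds no match of 3 units and is shown because Dnaja1 had the smallest p of the 41 genes.
Chordc1: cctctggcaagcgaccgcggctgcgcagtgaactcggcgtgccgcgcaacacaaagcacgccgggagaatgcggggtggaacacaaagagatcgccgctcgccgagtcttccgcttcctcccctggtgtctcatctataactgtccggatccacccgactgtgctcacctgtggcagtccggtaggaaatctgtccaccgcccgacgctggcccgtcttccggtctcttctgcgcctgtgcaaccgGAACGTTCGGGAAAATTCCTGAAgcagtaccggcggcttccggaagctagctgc
Hsph1: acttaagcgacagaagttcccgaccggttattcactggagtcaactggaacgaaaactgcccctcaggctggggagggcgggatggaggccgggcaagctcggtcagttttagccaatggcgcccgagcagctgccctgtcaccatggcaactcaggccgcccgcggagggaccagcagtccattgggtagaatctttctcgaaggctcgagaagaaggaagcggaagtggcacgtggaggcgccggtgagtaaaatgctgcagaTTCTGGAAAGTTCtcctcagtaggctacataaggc
Hspe1: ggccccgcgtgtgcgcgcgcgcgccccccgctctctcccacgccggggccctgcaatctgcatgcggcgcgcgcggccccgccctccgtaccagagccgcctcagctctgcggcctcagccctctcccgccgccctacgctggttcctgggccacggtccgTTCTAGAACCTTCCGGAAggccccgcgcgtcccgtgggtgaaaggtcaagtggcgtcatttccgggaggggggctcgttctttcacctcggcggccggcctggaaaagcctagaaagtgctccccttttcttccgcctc
Dnajb6: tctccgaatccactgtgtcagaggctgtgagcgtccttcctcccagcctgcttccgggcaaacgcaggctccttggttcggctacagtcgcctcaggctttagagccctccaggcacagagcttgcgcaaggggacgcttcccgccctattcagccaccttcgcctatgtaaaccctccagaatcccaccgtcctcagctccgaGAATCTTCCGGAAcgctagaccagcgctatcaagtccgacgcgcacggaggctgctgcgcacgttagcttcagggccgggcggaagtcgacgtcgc
Dnaja1: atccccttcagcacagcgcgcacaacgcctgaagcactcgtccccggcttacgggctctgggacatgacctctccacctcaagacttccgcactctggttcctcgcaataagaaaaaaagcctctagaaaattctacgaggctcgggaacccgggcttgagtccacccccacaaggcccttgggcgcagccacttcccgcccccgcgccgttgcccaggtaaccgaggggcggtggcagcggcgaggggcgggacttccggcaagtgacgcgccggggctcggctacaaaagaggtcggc

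No chaperone gene passed the test between panobinostat and vehicle. All members except Hspb1 had enough counts for a test, which left 40 of 41 in edgeR's quasi-likelihood test with Benjamini-Hochberg adjustment over 13207 genes. That test called 0 members higher and 0 lower, where it called 0 of all genes in either direction (0% each). At an unadjusted p under 0.05 stood 3 members, all lower, against 2.28% of all genes in either direction and 0.962% of all genes in the lower direction. The 3 were Dnaja1, Dnajb1 and Chordc1. DESeq2 called 1 member, Dnaja1, lower (adjusted p 0.0208), where it called 7 genes higher (0.053%) and 2 lower (0.0151%), and limma-voom called 0 genes. The adjusted p of Dnaja1 over the 16 alternatives ran from 0.0166 to 1. In edgeR's test each member's adjusted p was 0.998, except that of Dnajb6 at 0.999. Levels are given in CPM, counts relative to the library size after scaling by TMM factors, and a log2 fold change is panobinostat over vehicle with its standard error (SE).

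**Figure D1:**
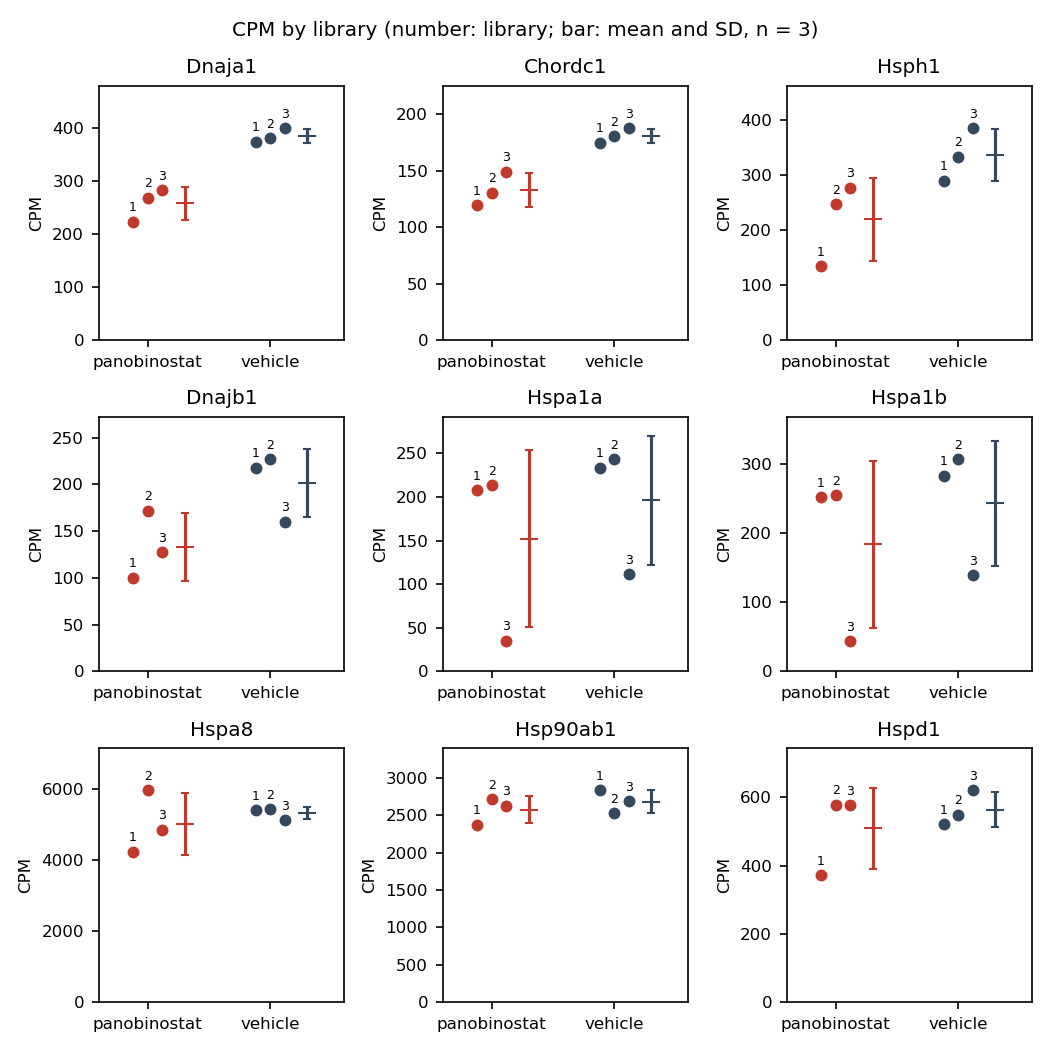
CPM of the members on which the comparison turns, in each panobinostat library and each vehicle library, with the mean and SD of each group (n = 3), on axes that start at 0. For Dnaja1, Chordc1 and Hsph1 the 3 panobinostat libraries lie below the 3 vehicle libraries, while Hspa1a and Hspa1b have 1 low library in each group.

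The libraries held 31989622 to 35962605 counts, so that a count of 0 in a library allows up to 3 counts, or 0.0834 to 0.0948 CPM, counting error only. Vehicle library 1 stood apart from its group: on principal component 1, with 50.7% of the variance, the panobinostat libraries stood at -16.7, -15.0 and -25.3, vehicle library 1 at -53.7 and the other 2 vehicle libraries at 54.3 and 56.4. Panobinostat library 1 stood apart on the second (27.6%). Without vehicle library 1, edgeR called 268 genes higher (2%) and 56 lower (0.419%), of which 0 were members. Without panobinostat library 1 and vehicle library 1, a setting chosen after seeing the data, it called 974 genes higher (7.36%) and 616 lower (4.65%), of which 4 were members, all lower. Summed markers of other cells moved between libraries too. B cell markers summed to 8.14 to 52.1 CPM in panobinostat libraries and 43.1 to 102 in vehicle libraries, and T cell markers to 0.695 to 5.66 CPM in panobinostat libraries and 3.86 to 7.01 in vehicle libraries. Neutrophil and monocyte markers summed to 5.004 to 6.32 CPM in panobinostat libraries and 7.11 to 9.70 in vehicle libraries, with Elane and Ly6g at 0 in 5 of the 6 libraries each. Erythroid markers summed to 2012 to 20247 CPM in panobinostat libraries and 5612.5 to 21798 in vehicle libraries. Mast cell and basophil markers summed to 346 to 961 CPM in panobinostat libraries, highest in panobinostat library 1, and 328 to 383 in vehicle libraries. Ms4a2 made up most of that sum in every library. Cpa3, Tpsab1, Mcpt8 and Prss34 were highest in panobinostat library 1, at 210, 15.5, 3.45 and 9.51 CPM. Elsewhere Cpa3 stood at 6.35 to 25.9 CPM and Tpsab1 at 0.406 to 0.821. Mcpt8 stood elsewhere at 0 to 0.474 CPM and Prss34 at 0.415 to 1.29. Fcer1a of the same list went the other way and was highest in vehicle library 1, at 60.8 CPM, against 27.4 CPM in panobinostat library 1. Kit, a receptor of progenitors and mast cells, stood at 172 to 241 CPM in panobinostat libraries and 121 to 266 in vehicle libraries. Ptprc, the blood cell antigen CD45, was low and did not overlap, at 1.31, 3.49 and 9.19 CPM in panobinostat libraries 1, 2 and 3 and 11.8, 11.8 and 10.8 CPM in vehicle libraries 1, 2 and 3. Its log2 fold change was -1.30 (SE 0.65, unadjusted p 0.0895, edgeR adjusted p 0.998). Ifnar1 stood at 35.7 to 46.4 CPM in panobinostat libraries and 36.9 to 48.0 in vehicle libraries. Since panobinostat and vehicle cells both carry the knockout label and such reads may lie outside the deleted part, this checks nothing. Immediate early genes such as Fos and Egr1 summed to 765 to 1437 CPM in panobinostat libraries and 241 to 1665 in vehicle libraries. Vehicle library 2 had the lowest of these sums. The part of these cell markers and of the immediate early genes in the chaperone values was not tested.

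Chaperone mRNA was abundant in both groups. The 41 genes summed to 16297, 19268 and 17373 CPM in panobinostat libraries 1, 2 and 3, and to 18556, 18987 and 18854 CPM in vehicle libraries 1, 2 and 3. That is 1.63 to 1.93% of the TMM-scaled library size, with the lowest and the highest sum both in the panobinostat group. A lower value in sorted cells could come from fewer cells of a type or from less RNA per cell, which cannot be told apart here. Scaled per kilobase of transcript, the highest mean levels over the 6 libraries were those of Hspa8, Hsp90ab1 and Hsp90aa1, at 2339, 1042 and 673 CPM per kb. Cct5, Hspd1, Cct3 and Tcp1 came next at 244, 221, 203 and 186 CPM per kb. These neighbours sit closer together than the spread of Hspd1 over the libraries, whose highest library was 1.66 times its lowest. At the low end, Hsf2, Hspb1 and Fkbp5 had a mean under 1 CPM and Bag3 under 10 CPM, and 32 members had a mean of at least 100 CPM. The highest library was under 1.5 times the lowest for 25 members and at least 2 times for 8, namely Hsf2, Hspa1a, Hspa1b, Hsph1, Dnajb1, Dnajb4, Bag3 and Fkbp5.

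**Figure D2:**
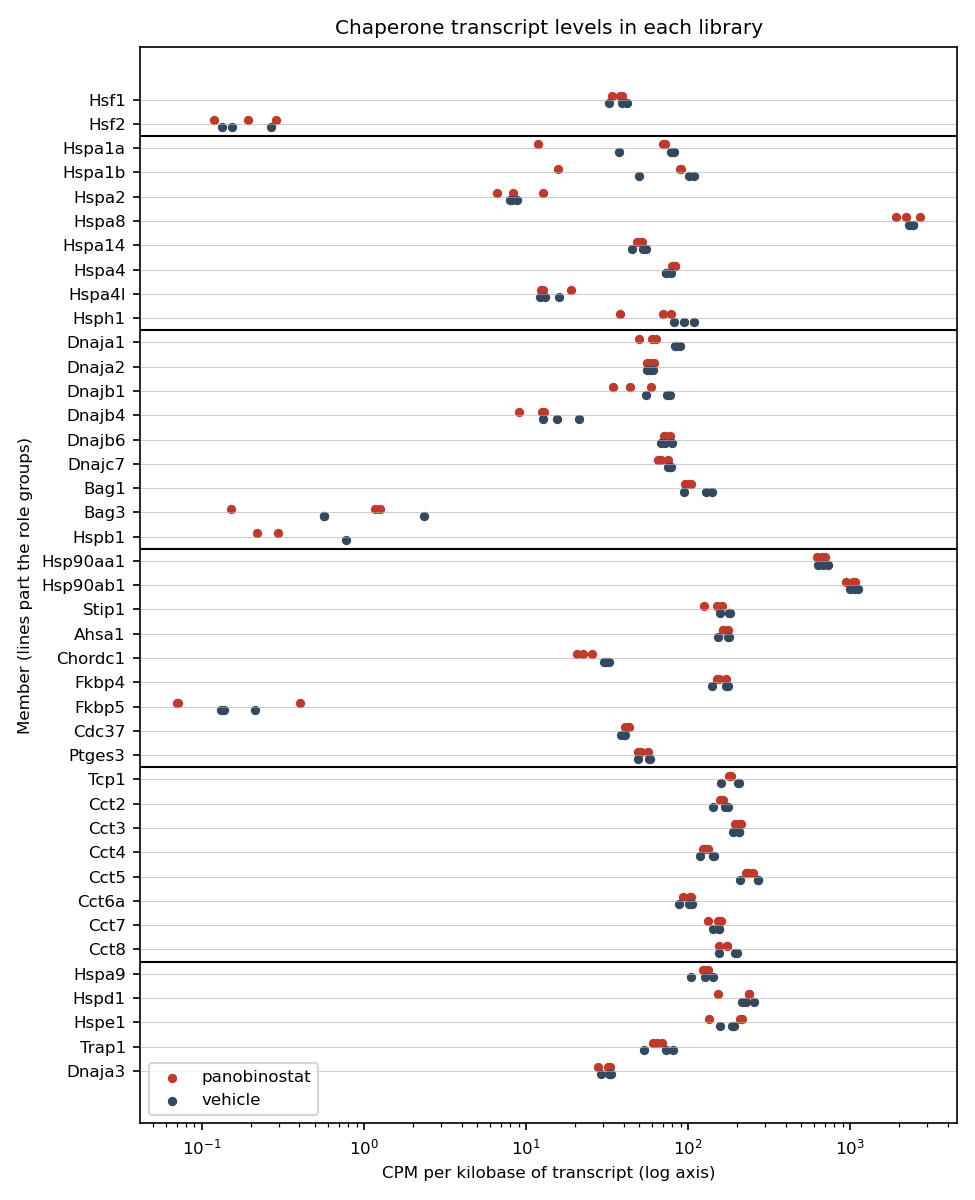
Level of each member in CPM per kilobase of transcript on a log axis, 1 point per panobinostat library (upper row of points) and per vehicle library (lower row), with lines between roles. Libraries with 0 counts, all of Hspb1, have no point. The 3 highest means are Hspa8, Hsp90ab1 and Hsp90aa1, and the lowest are Fkbp5, Hsf2 and Hspb1.

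Across the members, estimates were higher for 12 of the 40 tested members and lower for 28 (70.0%), against 49.8% lower over all tested genes, and their median log2 fold change was -0.05, against 0.00 over all tested genes. By role the median was 0.04 for the heat shock factors, -0.05 for HSP70 and HSP110, -0.37 for HSP40, BAG and small heat shock proteins, -0.04 for HSP90 and its co-chaperones, -0.05 for TRiC and -0.04 for mitochondrial chaperones. The median of the HSP40 role was -0.14 without vehicle library 2 and -0.20 without panobinostat library 1. The 3 panobinostat libraries lay all below the 3 vehicle libraries for 3 members, against 3.63% of tested genes, and all above for 2, against 3.79%. Together these are 12.5% of the tested members, against 7.43% of tested genes. Among the 2667 tested genes with a mean of at least 100 CPM, where most members lie, 4.46% did not overlap and 50.1% had a lower estimate. The members' median stood at -0.13 without vehicle library 1 and at -0.01 without vehicle library 2, and the number lower ran from 22 to 32 over the alternatives.

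**Figure D3:**
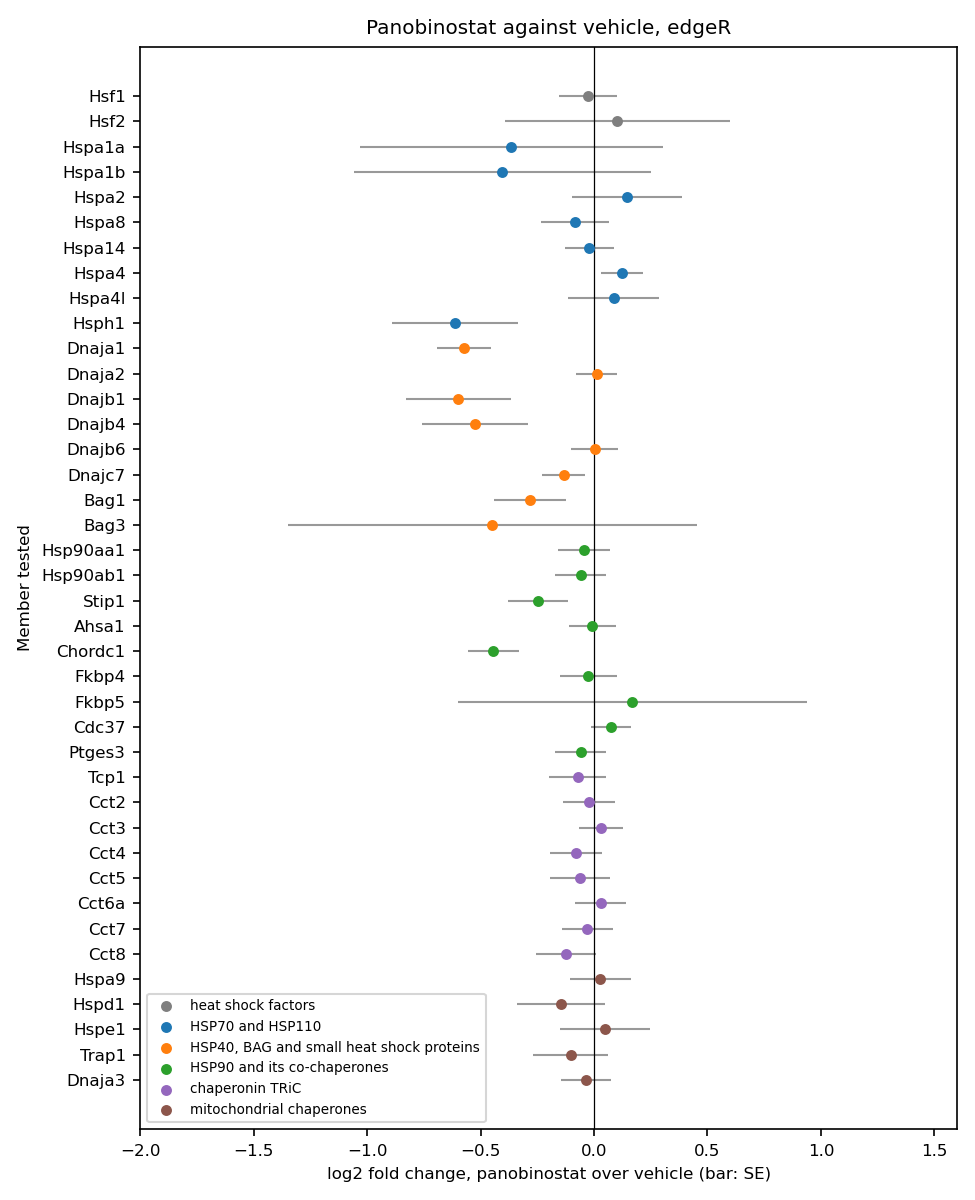
Log2 fold change of panobinostat over vehicle for each tested member, with bars of 1 SE, grouped by role. Estimates below 0 are lower with panobinostat, and the farthest are those of Hsph1, Dnajb1 and Dnaja1 at -0.61, -0.60 and -0.57.

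The heat shock factors themselves differed by less than the spread between libraries. Hsf1, the main activator of the heat shock response (Entrez 15499, chromosome 15, 76477362 to 76501155, GRCm38), stood at 69.0, 76.6 and 78.8 CPM in panobinostat libraries 1, 2 and 3, and at 65.3, 84.4 and 78.8 CPM in vehicle libraries 1, 2 and 3. The groups overlapped, with the lowest and highest values both in vehicle libraries. The means were 74.8 ± 5.15 CPM with panobinostat and 76.2 ± 9.82 with vehicle (SD, n = 3 each), a log2 fold change of -0.03 (SE 0.13). Hsf2, a second factor of the family that acts with HSF1 and in development, was near the floor, at 0.5003, 0.309 and 0.741 CPM in panobinostat libraries and 0.695, 0.402 and 0.348 CPM in vehicle libraries. With 11 to 25 counts per library, its difference of 0.10 (SE 0.50) is not resolved at this depth. The activity of HSF1 is set largely on the protein, and mRNA levels do not measure it.

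Among members with a mean of at least 100 CPM, the inducible HSP70 genes varied most between libraries. Hspa1a and Hspa1b, a pair of neighbouring genes for the stress-inducible HSP70 (chromosome 17, 34969359 to 34972156 and 34956429 to 34959238), had a highest library 6.90 and 6.96 times the lowest. Hspa1a stood at 208, 214 and 35.2 CPM in panobinostat libraries 1, 2 and 3, and at 234, 243 and 111 CPM in vehicle libraries 1, 2 and 3. Hspa1b stood at 252, 255 and 44.0 CPM in panobinostat libraries, and at 283, 306 and 139 CPM in vehicle libraries. The library numbered 3 was the lowest of each group for both genes, and the groups overlapped. Log2 fold changes were -0.36 (SE 0.67) and -0.40 (SE 0.66), and without panobinostat library 3 they were 0.10 and 0.06. With limma-voom they were -0.67 and -0.70. A fit with a term for the library number, the replicate block, gave -0.66 (SE 0.36) and -0.69 (SE 0.36). Both genes carry the same message in part: 66.3% of the 50-base stretches of the Hspa1a transcript are also in another gene's transcript, most of them in Hspa1b, so reads could be split between them and their separate counts are uncertain. Hspa1a took 44.2 to 45.6% of the counts of the pair in every library. Their promoter windows were identical at 296 of 300 letters (98.7%), and each holds a run of 2 units but none of 3.

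Of the other HSP70 and HSP110 genes, Hsph1 had the lowest estimate. Hspa8, the constitutive cytosolic HSP70 (chromosome 9, 40801276 to 40805202), stood at 4233, 5949 and 4851 CPM in panobinostat libraries and 5400.2, 5419 and 5112 CPM in vehicle libraries. The panobinostat libraries lay on both sides of the vehicle libraries, and the log2 fold change was -0.08 (SE 0.15). Of the Hspa8 transcript's 50-base stretches, 74.8% are also in another annotated gene's transcript, so its count depends on how the authors treated reads with several positions. Counts of Hspa8 were 16.8, 23.4 and 110 times those of Hspa1b in panobinostat libraries, and 19.1, 17.7 and 36.8 times in vehicle libraries. Hsph1, an HSP110 that recharges HSP70 with ATP (chromosome 5, 149616843 to 149636498), stood at 135, 247 and 277 CPM in panobinostat libraries, and at 289.7, 333 and 385 CPM in vehicle libraries. Every panobinostat value was below every vehicle value, and panobinostat library 1 was the lowest. The means were 219 ± 74.8 CPM with panobinostat and 336 ± 47.5 with vehicle (SD, n = 3 each), a log2 fold change of -0.61 (SE 0.28) with an unadjusted p of 0.0675 in edgeR's test. Without panobinostat library 1 the log2 fold change was -0.36. Without both libraries numbered 1 it was -0.47 and Hsph1 was called lower (edgeR adjusted p 0.0482, 0.0482 to 1 over the alternatives). Hspa4, another exchange factor of the HSP110 family (chromosome 11, 53259814 to 53300479), went the other way by a small margin, at 385, 365 and 382 CPM in panobinostat libraries and 339, 336 and 365 CPM in vehicle libraries. The groups did not overlap, but to 3 digits the nearest values of the groups were alike, and the log2 fold change was 0.12 (SE 0.09, unadjusted p 0.233). Hspa14, an HSP70 of the ribosome, and the testis-enriched Hspa2 and Hspa4l had log2 fold changes of -0.02 (SE 0.11), 0.15 (SE 0.24) and 0.09 (SE 0.20), each with overlapping groups.

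**Figure D4:**
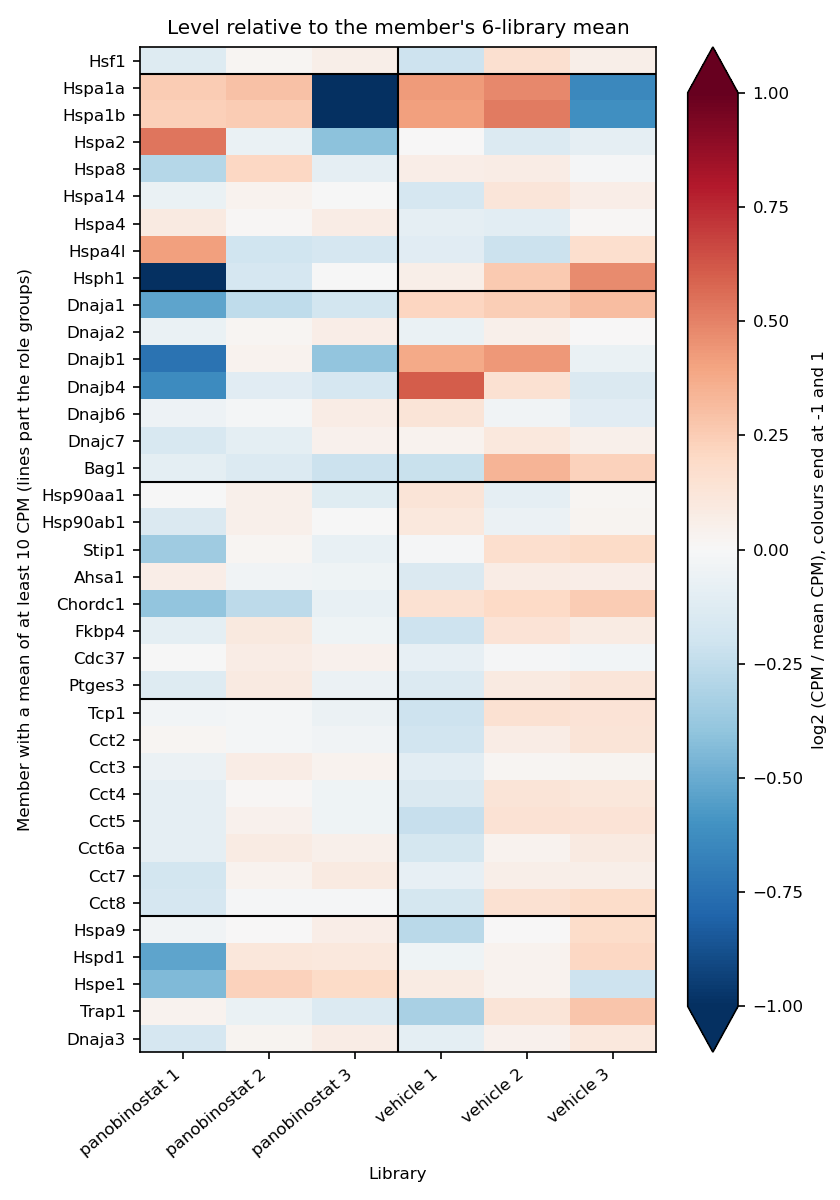
Level of each member with a mean of at least 10 CPM in each library, as log2 of its CPM over its mean CPM in the 6 libraries, with panobinostat libraries left of vehicle libraries and lines between roles. Colours end at -1 and 1. Panobinostat library 3 is low for Hspa1a and Hspa1b, and vehicle library 1 is the lowest library for 7 of the 8 TRiC subunits.

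Among HSP40 and BAG co-chaperones, 6 of 8 tested genes (75%) had a lower estimate, against 49.8% of all tested genes. Panobinostat library 1 was the lowest library for Dnaja1, Dnajb1, Dnajb4, Dnajc7 and Bag3. Dnaja1 had the smallest p of all members. Dnaja1, an HSP40 that stimulates the ATPase of HSP70 (Entrez 15502, chromosome 4, 40722468 to 40734965), stood at 224, 269.6 and 284 CPM in panobinostat libraries 1, 2 and 3, and at 375, 381 and 400.0 CPM in vehicle libraries 1, 2 and 3. The groups were well apart, and vehicle library 1 lay with its group. The means were 259 ± 31.1 CPM with panobinostat and 385 ± 13.0 with vehicle (SD, n = 3 each). The log2 fold change was -0.57 (SE 0.12), with an unadjusted p of 0.00257 and an adjusted p of 0.998 in edgeR's test, and by p it ranked 8 of 13207 genes. Leaving out each library in turn gave -0.65 to -0.48, and without both libraries numbered 1 it was -0.51 and called (edgeR adjusted p 0.0166). Of its transcript's 50-base stretches, 28.8% are also in another annotated gene's transcript, and a long noncoding gene, Gm6297, overlaps it. Dnaja2, a close relative of Dnaja1, had a log2 fold change of 0.01 (SE 0.09) and overlapping groups. Counts of Dnaja1 were 1.37, 1.56 and 1.59 times those of Dnaja2 in panobinostat libraries 1, 2 and 3, and 2.30, 2.15 and 2.34 times in vehicle libraries 1, 2 and 3.

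Dnajb1, the stress-inducible partner of HSP70 (chromosome 8, 83608175 to 83612653), stood at 100.3, 172 and 128 CPM in panobinostat libraries, and at 218, 227 and 160.3 CPM in vehicle libraries. Panobinostat library 2 lay above vehicle library 3, so the groups overlapped. The means were 133 ± 36.1 CPM with panobinostat and 202 ± 36.1 with vehicle (SD, n = 3 each), a log2 fold change of -0.60 (SE 0.23, unadjusted p 0.0406, edgeR adjusted p 0.998). With each library left out in turn it ranged from -0.83 to -0.43, and was -0.43 without panobinostat library 1. Over the alternatives the smallest adjusted p of Dnajb1 was 0.31, so no alternative called it. Dnajb4, a relative of Dnajb1, had a log2 fold change of -0.52 (SE 0.23, unadjusted p 0.0628), which was -0.16 without both libraries numbered 1. Bag1, the most abundant of this role per length and an exchange factor that links HSP70 to the proteasome, stood at 137, 133 and 126 CPM in panobinostat libraries and 126, 185 and 172 CPM in vehicle libraries. Vehicle library 1 lay with the panobinostat values, and the log2 fold change was -0.28 (SE 0.16). Without vehicle library 2 it was -0.17. Without vehicle library 1 it was -0.44 (edgeR adjusted p 0.0688), and without both libraries numbered 1 it was -0.47 and called (0.0213), where the adjusted p over the alternatives ran from 0.0213 to 1. Bag3, an HSF1 target that works with small heat shock proteins in autophagy, was low and scattered, at 0.389 to 3.20 CPM in panobinostat libraries and 1.45 to 6.05 CPM in vehicle libraries. Dnajb6, which keeps aggregation-prone proteins soluble, and Dnajc7, which binds both HSP70 and HSP90, had log2 fold changes of 0.00 (SE 0.10) and -0.13 (SE 0.10). Of the Dnajb6 transcript's 50-base stretches, 42.8% are also in another annotated gene's transcript. The annotated Dnajc7 overlaps Cnp by 9058 bases. Hspb1, a small heat shock protein, was not tested, with 0, 7 and 9 counts in panobinostat libraries and 22, 0 and 0 counts in vehicle libraries. The genes of this role summed to 914, 1058.5 and 1051 CPM in panobinostat libraries and to 1240.3, 1314 and 1222 CPM in vehicle libraries, so that the sums did not overlap. The mean sums were 1008 CPM with panobinostat and 1259 with vehicle. Of these, Dnaja1 held 259 and 385 CPM and Dnajb1 133 and 202 CPM. The sums therefore largely restate these genes, and no share of such separations over other gene sets was computed.

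**Figure D5:**
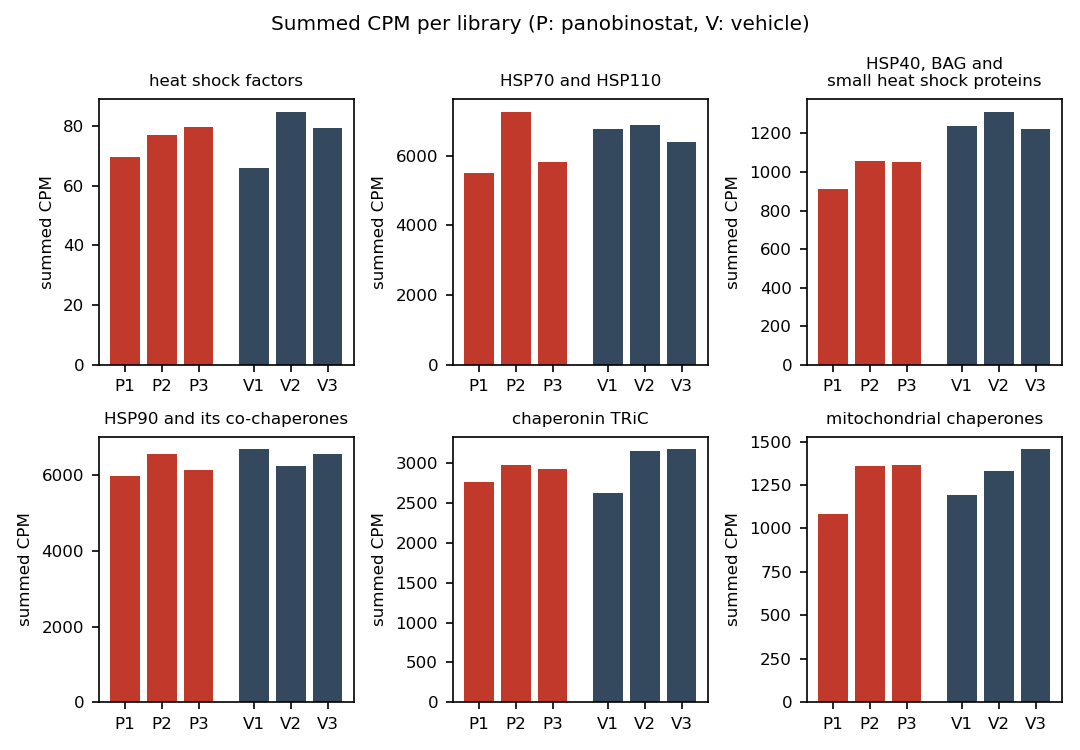
Summed CPM of the members of each role in each panobinostat library and each vehicle library. For HSP40, BAG and small heat shock proteins the panobinostat sums are 914 to 1058.5 CPM and the vehicle sums 1222 to 1314 CPM, and for the other roles the groups overlap.

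The mRNA of both cytosolic HSP90 genes differed by less than the spread between libraries. Hsp90aa1, the inducible HSP90 (chromosome 12, 110691036 to 110696395), stood at 2204, 2286 and 2037 CPM in panobinostat libraries and 2409.7, 2080.2 and 2241 CPM in vehicle libraries, a log2 fold change of -0.04 (SE 0.11). Hsp90ab1, the constitutive HSP90 (chromosome 17, 45567778 to 45573261), stood at 2374, 2715 and 2624 CPM in panobinostat libraries and 2829, 2526 and 2682 CPM in vehicle libraries, a log2 fold change of -0.06 (SE 0.11). The groups overlapped for both genes. Hsp90aa1 took 43.7 to 48.2% of the counts of the pair, with both ends of the range in panobinostat libraries. In its transcript, 58.5% of 50-base stretches are also in another annotated gene's transcript, against 4.49% for Hsp90ab1.

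Chordc1 had the smallest p of the HSP90 genes and co-chaperones. It encodes morgana, a protein with CHORD domains that binds HSP90 (Entrez 66917, chromosome 9, 18292267 to 18314000), and its promoter window holds the longest run of units printed above. Chordc1 stood at 119, 130.4 and 149 CPM in panobinostat libraries 1, 2 and 3, and at 174, 180.3 and 187 CPM in vehicle libraries 1, 2 and 3. All panobinostat values were below all vehicle values. The means were 133 ± 15.0 CPM with panobinostat and 181 ± 6.38 with vehicle (SD, n = 3 each), a log2 fold change of -0.44 (SE 0.11) with an unadjusted p of 0.00647 and an adjusted p of 0.998 in edgeR's test, and it ranked 25 of 13207 genes by p. Leaving out each library in turn gave -0.54 to -0.37, and without both libraries numbered 1 it was -0.41 and called (edgeR adjusted p 0.0482, 0.0482 to 1 over the alternatives). Of its transcript, 0.331% of the 50-base stretches are in another gene's transcript. A pseudogene, Gm19178, and a long noncoding gene, Gm51667, overlap it.

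Cdc37, which brings kinases to HSP90 (chromosome 9, 21139431 to 21149934), was higher by a small margin, at 322, 339 and 333 CPM in panobinostat libraries and 305, 321 and 317 CPM in vehicle libraries. The groups did not overlap, but the means of 331 ± 9.03 CPM with panobinostat and 314 ± 8.47 with vehicle (SD, n = 3 each) gave a log2 fold change of 0.08 (SE 0.09, unadjusted p 0.421). Stip1, the adaptor that hands clients from HSP70 to HSP90, averaged 307 ± 40.2 CPM with panobinostat and 365 ± 27.9 with vehicle (SD, n = 3 each), a log2 fold change of -0.25 (SE 0.13, unadjusted p 0.109), which was -0.14 without panobinostat library 1. Ahsa1, which activates the ATPase of HSP90, the immunophilin Fkbp4 and Ptges3, the p23 co-chaperone, had log2 fold changes of -0.01 (SE 0.10), -0.02 (SE 0.13) and -0.06 (SE 0.11). Fkbp5, an immunophilin induced by glucocorticoids, had 9 to 48 counts per library and a log2 fold change of 0.17 (SE 0.77).

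The 8 subunits of TRiC varied little. Their log2 fold changes ran from -0.12 for Cct8 to 0.03 for Cct3 and Cct6a, and the highest library was 1.13 to 1.30 times the lowest. Cct5, the most abundant per length (chromosome 15, 31590800 to 31601846), stood at 425, 465 and 439 CPM in panobinostat libraries and 386, 501 and 498 CPM in vehicle libraries. Cct8, with the smallest p (chromosome 16, 87483325 to 87495869), stood at 374, 416 and 416 CPM in panobinostat libraries and 371, 466 and 478 CPM in vehicle libraries, a log2 fold change of -0.12 (SE 0.13, unadjusted p 0.381). In both genes vehicle library 1 was the lowest of all and vehicle libraries 2 and 3 were the highest, so the vehicle values surround those of panobinostat. Vehicle library 1 was the lowest for 7 of the 8 subunits and panobinostat library 1 for the other. Without vehicle library 1 the median of the subunits was -0.15. Tcp1, a subunit that overlaps Mrpl18 and Acat3, had 22.2% of its 50-base stretches in another gene's transcript.

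For all 5 mitochondrial chaperones the groups overlapped. Hspd1, HSP60 (chromosome 1, 55077833 to 55088243), stood at 373, 579 and 577 CPM in panobinostat libraries and 521, 549 and 621 CPM in vehicle libraries, a log2 fold change of -0.15 (SE 0.19, unadjusted p 0.48). Hspe1, its partner HSP10 (chromosome 1, 55088148 to 55091317), stood at 104, 166 and 161 CPM in panobinostat libraries and 149.8, 144 and 122 CPM in vehicle libraries, a log2 fold change of 0.05 (SE 0.20). Panobinostat library 1 was the lowest for both. The annotated genes overlap head to head by 96 bases, and 44.8% of the 50-base stretches of each are in another gene's transcript. Counts of Hspd1 were 3.59, 3.498 and 3.58 times those of Hspe1 in panobinostat libraries 1, 2 and 3, and 3.48, 3.80 and 5.08 times in vehicle libraries 1, 2 and 3, so vehicle library 3 stood off from the other 5. Hspa9, the mitochondrial HSP70, Trap1, the mitochondrial HSP90, and Dnaja3, a mitochondrial HSP40, had log2 fold changes of 0.03 (SE 0.14), -0.10 (SE 0.17) and -0.04 (SE 0.11).

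The run of 3 units in the promoter window can be set beside the fold changes, as a description. The median log2 fold change was -0.15 for the 5 tested members with the run (3 lower) and -0.04 for the 29 tested members with a window and no run (20 lower). Over all tested genes with the run it was -0.03, with 34 of 58 lower (58.6%), against 0.00 and 49.4% lower over 9813 tested genes with a window. Of the 3 members whose panobinostat libraries all lay below the vehicle libraries, Hsph1 and Chordc1 hold the run and Dnaja1 does not. Dnajb6, Hspd1 and Hspe1 hold it and had overlapping groups. The runs are those in capitals in the printed windows.

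Other genes of the same pathways gave no call. Of 73 genes in 5 lists, 67 were tested. Estimates were higher for 27 of these and lower for 40 (59.7%), against 49.8% lower over all tested genes. The median log2 fold change of the 67 was -0.02, against 0.00 over all tested genes. In edgeR's test 0 of the 67 and 0 of all genes were called. At an unadjusted p under 0.05 in that test stood 0 of the 67, against 2.28% of all tested genes. By list, 12 of 18 tested partners of HSP70 and HSP40 had a lower estimate, 7 of 15 HSP90 co-chaperones, 6 of 9 prefoldins and chaperonin partners, 8 of 13 mitochondrial import and protease partners, and 7 of 12 other heat shock responsive genes. Dedd2, from the last list, averaged 50.5 ± 8.38 CPM with panobinostat and 70.9 ± 15.4 with vehicle (SD, n = 3 each), a log2 fold change of -0.49 (SE 0.20, unadjusted p 0.051). Hspb6, a small heat shock protein, had -0.47 (SE 0.30). Clpb, a mitochondrial disaggregase, and Dnajc2, an HSP40 of the ribosome, were the 2 tested genes whose groups did not overlap, both higher. These are 2.99% of the tested pathway genes, against 7.43% of all tested genes, or 3.79% of all tested genes in the higher direction. Dnajc15, which was too low to be tested, had 2 to 6 counts in panobinostat libraries and 6 to 12 in vehicle libraries. Its groups met at 6 counts. Only the scaled values did not overlap, in the lower direction, at 0.178 CPM in panobinostat library 3 and 0.190 in vehicle library 1. Clpb averaged 20.4 ± 0.272 CPM with panobinostat and 16.9 ± 2.91 with vehicle (SD, n = 3 each), a log2 fold change of 0.27 (SE 0.16). Dnajc2 averaged 107 ± 3.07 CPM with panobinostat and 99.6 ± 0.996 with vehicle (SD, n = 3 each), a log2 fold change of 0.11 (SE 0.08). Dnajc19 of the mitochondrial import motor had -0.39 (SE 0.25), and Bag2, which restrains the ubiquitin ligase CHIP, had -0.20 (SE 0.14). The prefoldin subunits Pfdn1 and Vbp1, which pass actin and tubulin to TRiC, had -0.28 (SE 0.19) and -0.11 (SE 0.09), and the HSP90 partner Rpap3 had 0.15 (SE 0.11).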

How the data were processed

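mRNA libraries of 6 samples, 3 panobinostat and 3 vehicle, were prepared with a TruSeq kit per the labels' protocols. The authors' table gives raw counts, whole numbers with no normalization that the values would show, for each Entrez gene identifier. The tools in the submitters' processing notes are HISAT2 2.1.0, Subread 2.0.0 with featureCounts, cutadapt 2.1, FastQC 0.11.6, limma and bcl2fastq 2.17.1.14, and the genome build is mm10. Not given in the sources used here are their order and options, the annotation and whether strand was used, so counts of genes that overlap or share sequence are uncertain. Symbols from the reference annotation of GRCm38, the assembly of mm10, were found for 25275 of 27179 identifiers.

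The test was edgeR's (version 4.0.16, R 4.3.3) on counts: filterByExpr with a minimum count of 10, TMM factors, the robust quasi-likelihood F-test, two-sided, with Benjamini-Hochberg adjustment over all genes tested and a threshold of 0.05. The test was first tried on simulated counts. The SE is the log2 fold change divided by the square root of F. CPM per kb uses the median length of a gene's annotated mRNA transcripts; that of Cdc37 is long, which lowers its value. Shared sequence is the share of 50-base stretches of a transcript found in a transcript of another annotated gene.

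The members and lists were chosen with earlier results of these data known, so no list was tested. Values in every library are given for Hsf1, Hsf2, Hspa1a, Hspa1b, Hsp90aa1, Hsp90ab1, Hspd1 and Hspe1, for members with an unadjusted p under 0.05 or groups that do not overlap, and for the most abundant member and the smallest p of each role. Of each pathway list the 2 smallest p are named, except 1 gene that is not reported here. Alternatives were RLE and upper-quartile factors, library size alone, a mean of at least 1 CPM, no filter, DESeq2 1.42.0, limma-voom (limma 3.58.1), no robust option, an adjusted p under 0.01, the replicate block and each library left out. A fit without panobinostat library 1 and vehicle library 1 was chosen after seeing the data.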

Additional observations from a re-analysis of the deposited data

How the results depend on the processing

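Over 16 alternative fits, 15 of the 40 tested members kept their sign, 13 lower and 2 higher (Hspa4 and Cdc37), and 25 changed sign in at least 1, in 58 of 638 pairs of member and fit. The count of calls depended on the tool and on libraries. DESeq2 called 7 genes higher and 2 lower, with 1 member lower, against 0 in edgeR's test. Leaving out each library in turn gave 0 to 268 genes higher and 0 to 56 lower, both highest without vehicle library 1, with 0 members called in each. Without both libraries numbered 1, chosen after seeing the data, 974 genes were higher and 616 lower, with 4 members lower. RLE, upper-quartile and library-size scaling, both filter settings, limma-voom, no robust option and an adjusted p under 0.01 called 0 genes. The same-numbered libraries' deviations from their group means correlated at -0.14, 0.07 and -0.20, and those of differently numbered libraries at -0.18 to 0.23. With 3 libraries per group these values cannot settle whether the numbers pair the libraries. The replicate block, a fit with a term for the library number, called 0 genes and 0 members, with a members' median of -0.05 and 29 lower. Estimates near 0 changed sign elsewhere. Dnajb6 went to -0.0019 with RLE factors, -0.012 with library size alone, -0.0046 with a mean of at least 1 CPM and -0.0018 with DESeq2, and Dnaja2 to -0.0050 with library size alone. Fkbp5 went to -0.30 with limma-voom and -0.29 with the replicate block. Without both libraries numbered 1, the log2 fold change was -0.13 for Hspa2, 0.0267 for Hspa8, -0.18 for Hspa4l, 0.0254 for Hsp90ab1, -0.0063 for Cct6a and -0.07 for Hspa9. With each library left out in turn the ranges that crossed 0 were -0.0867 to 0.0336 for Ahsa1, -0.83 to 0.59 for Bag3, -0.13 to 0.0414 for Cct2, -0.0205 to 0.0696 for Cct3, -0.19 to 0.00464 for Cct5, -0.0590 to 0.0841 for Cct6a, -0.0888 to 0.0477 for Cct7, -0.0318 to 0.0482 for Dnaja2, -0.10 to 0.0349 for Dnaja3, -0.0488 to 0.0622 for Dnajb6, -0.13 to 0.0432 for Fkbp4, -1.17 to 0.55 for Fkbp5, -0.14 to 0.0557 for Hsf1, -0.25 to 0.45 for Hsf2, -0.12 to 0.0383 for Hspa14, -0.69 to 0.10 for Hspa1a, -0.72 to 0.0556 for Hspa1b, -0.15 to 0.33 for Hspa2, -0.14 to 0.21 for Hspa4l, -0.23 to 0.0257 for Hspa8, -0.0958 to 0.14 for Hspa9, -0.25 to 0.0376 for Hspd1, -0.0737 to 0.24 for Hspe1 and -0.27 to 0.0269 for Trap1. The causes were not tested. Depth limits Hsf2, Hspb1 and Fkbp5, with under 50 counts in every library.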
